A study of Mus musculus with 2 samples.

Results

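The complement system is a cascade of plasma proteins, and the 34 genes described here encode its components in the mouse, taken by gene symbol through the Ensembl identifier from a table of 43346 mouse gene rows. They were set out by pathway as 8 genes of the classical pathway, 7 of the lectin pathway, 4 of the alternative pathway, 7 of the terminal pathway, 6 regulators and 2 receptors. All 34 matched a single row in each library. The rule itself names the genes by symbol and sets no threshold on their levels.

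Total RNA was sequenced from the liver of mouse embryos of strain B6NCrl at embryonic day 14.5, in 1 group of 2 biological replicates with 1 library each. No treatment or altered genotype is named in the labels. Replicate 1 was collected on 17 July and replicate 2 on 15 July, so a difference between the livers cannot be told apart from one between the days. The labels call each sample the liver of 1 pup and also give its sex as pooled, so what 1 replicate holds is not settled by them.

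Complement can be started along the classical route, in which C1q binds antibody or surfaces, along the lectin route, in which collectins and ficolins bind sugars, or along the alternative route, which amplifies on C3 itself. All routes cleave C3 and then C5, and the products of the late genes assemble into a pore in the target membrane. In the adult the hepatocyte makes most of the plasma components, whereas C1q comes mainly from macrophages and properdin from myeloid cells. The liver at this age is also the main site of blood formation.

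Replicate 1 held 37059776 estimated reads on mouse genes and replicate 2 held 26908926. Levels are given as TPM, a share of all transcripts that scales a gene's reads by its length, and reads are the estimated counts deposited beside it. All 10 markers of hepatocytes were at 1 TPM or more in both libraries, led by Afp at 6417 and 6856 TPM, and 9 of 10 macrophage markers were, with summed levels of 118 and 124 TPM. The 10 neutrophil markers summed to 2792 TPM and 2003 TPM, each of them lower in replicate 2, and the 6 mast cell and basophil markers to 21.9 TPM and 9.29 TPM. In bulk tissue, fewer cells of a type and less RNA per cell cannot be told apart. With 1 group there was nothing to test between, and each value stands per library or as the mean with its SD over both.

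Most of the cascade was transcribed in the E14.5 liver. Of the 34 genes, 27 reached 1 TPM in both livers, against 49.2% of 21474 protein-coding genes. C4a, Cfd, C6, C7, Cd46, C3ar1 and C5ar1 did not. A mean of 10 TPM or more was reached by 19 genes of the 34, against 24.8% of protein-coding genes, and 3 of them, C3, Cfi and Cfb, stood above 100 TPM. The median over the 34 genes was 17.4 TPM, beside 1.05 TPM over protein-coding genes. Together the genes took 1018 and 1009 TPM (here and below replicate 1 first), which was 0.114% and 0.112% of mouse TPM and 0.226% and 0.223% of reads.

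The total was concentrated in few genes. C3, Cfi and Cfb held 40.4% of it in replicate 1 and 41.5% in replicate 2. By pathway, the alternative genes took 30.2% ± 0.4 (SD, n = 2), the regulators 26.0% ± 0.7, the classical genes 19.7% ± 0.5, the lectin genes 12.8% ± 0.1, the terminal genes 11.1% ± 0.1 and the receptors 0.152% ± 0.025. The order of the first 5 sets was the same in both livers. Counted by reads instead of per length, the alternative genes took 45.1%, the transcript C3-201 being 5136 nucleotides long, and without C3 in the sum they took 16.1% of TPM.

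**Figure D1:**
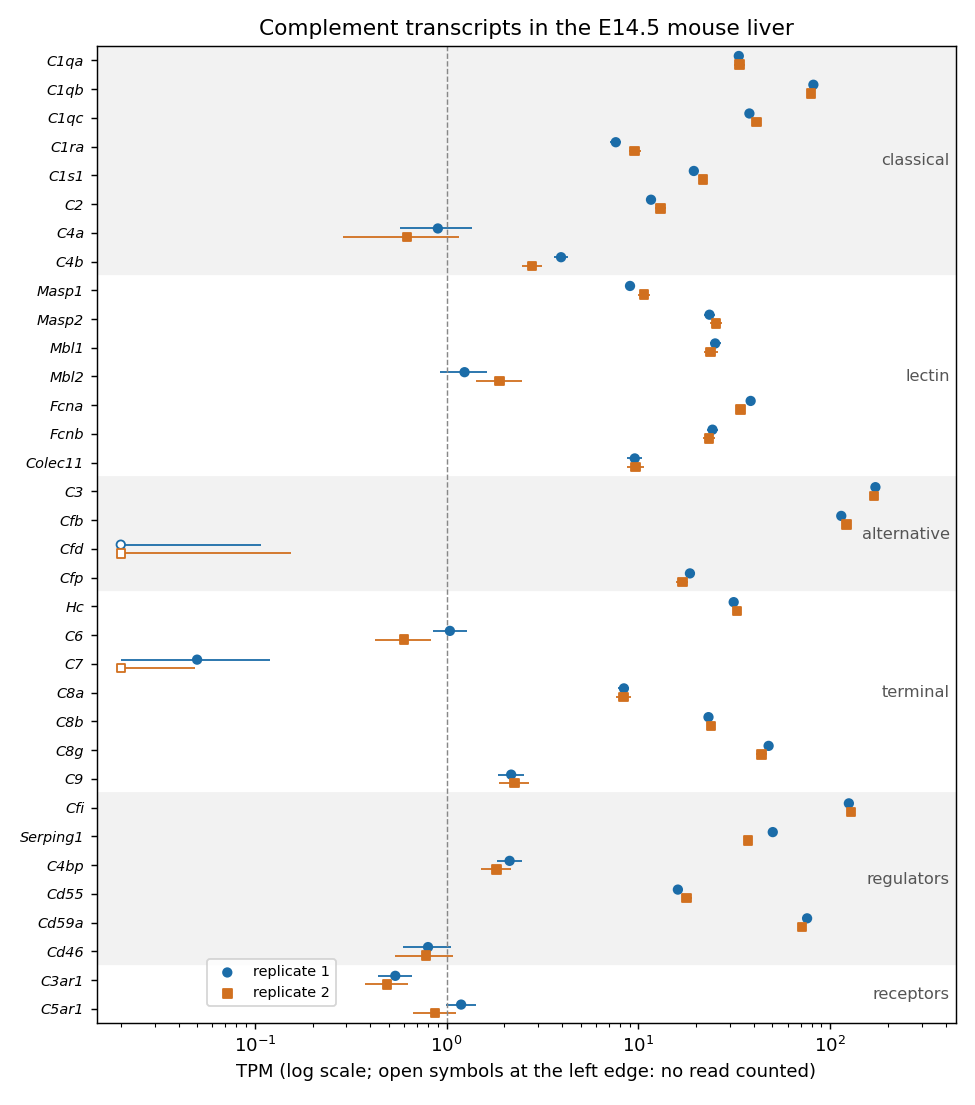
TPM of the 34 complement genes in replicate 1 (circles) and replicate 2 (squares) on a log axis, grouped by pathway, with exact Poisson 95% intervals of the read count as bars and a dashed line at 1 TPM. Open symbols at the left edge mark genes with no read, which were Cfd in both livers and C7 in replicate 2, while C3, Cfi and Cfb lay to the right of 100 TPM in both.

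In the classical pathway, the recognition subunit genes were the highest. C1qa, C1qb and C1qc encode the A, B and C chains of C1q, and the 3 genes lie together on the minus strand of chromosome 4 within 18675 nucleotides (GRCm38, 136880129 to 136898803), with no other annotated gene inside. C1qa stood at 33.4 and 33.6 TPM, from 1313 and 919 reads. C1qb stood at 81.7 and 79.5 TPM, and C1qc at 37.9 and 41.2 TPM. C1qb was thus highest in each liver, 2.45-fold above C1qa in replicate 1 and 2.37-fold in replicate 2, a log2 ratio of 1.27 ± 0.03 (SD, n = 2). C1qc exceeded C1qa by a log2 ratio of 0.24 ± 0.08.

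The log2 ratio of read shares between the livers (replicate 2 over replicate 1) was -0.05 for C1qa, -0.10 for C1qb and 0.06 for C1qc. The summed macrophage markers differed by a log2 ratio of 0.07 in TPM, led by Cd5l at 34.3 and 37.5 TPM, while the scavenger receptor gene Cd163 was at 0.02 TPM in both. The part of macrophage number in the C1q levels was not tested.

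The proteases that C1q activates were lower than C1q. C1s1, the gene of the C1s protease that cleaves C4 and C2, was at 19.4 and 21.6 TPM, and C1ra, the gene of the C1r protease that activates C1s, was at 7.62 and 9.56 TPM. Their log2 ratio was 1.27 ± 0.12 (SD, n = 2). The mouse copies of these genes, C1rb and C1s2, had no read assigned in either liver. C2, whose product is the protease part of the classical C3 convertase, was at 11.6 and 13.0 TPM, higher in replicate 2 as were C1ra and C1s1.

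The C4 genes were the low step of the classical pathway. C4b, the gene of the functional C4 protein (chromosome 17, 34728380 to 34743882), had a level of 3.95 and 2.78 TPM, from 497 and 281 reads. The protein-coding C4b-201 was at 2.01 and 1.70 TPM, and the 749-nucleotide C4b-203, typed as a retained intron, at 1.94 and 0.96 TPM. By reads C4b-201 held 89.4% and 92.7% of the gene. C4a, known in the mouse as the gene of the sex-limited protein, a C4 relative without its complement activity, was at 0.90 and 0.62 TPM from 23.3 and 9.32 reads. The annotation used here types C4a as a processed transcript and the other 33 genes as protein-coding. Both genes together gave 4.85 and 3.40 TPM, below each of the other classical genes in either liver.

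C4a and C4b can share reads, because their transcripts are nearly alike. Over 5153 aligned nucleotides C4b-201 and C4a-203 differed at 160, an identity of 96.9%, and 871 of the 5280 windows of 100 nucleotides in C4b-201 (16.5%) occurred unchanged in a C4a transcript. The stretch below is nucleotides 1246 to 1305 of C4b-201 in its coding part (GENCODE M21 transcripts, plus sense of the RNA, 5′ to 3′). It is shown because no other ungapped 60 nucleotides of that part held more differences, and its 9 differing bases are in capitals. Reads can also tell the genes apart at other differing bases.
C4b-201: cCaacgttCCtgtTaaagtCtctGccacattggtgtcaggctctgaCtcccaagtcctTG
C4a-203: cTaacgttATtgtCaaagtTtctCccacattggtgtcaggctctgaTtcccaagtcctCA
The deposited posterior SD of the C4a count, the spread left by reads that fit several loci, was 11.9% of the estimate in replicate 1 and 19.3% in replicate 2, against 0.598% and 0.764% for C4b. Of the reads given to C4a, the 526-nucleotide transcript C4a-206 took 11.3 and 4.84, and by reads the log2 ratio of C4b to C4a was 4.66 in place of 2.15 by TPM.

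All 7 lectin pathway genes reached 1 TPM in both livers, and 4 of them lay between 20 and 40 TPM. Fcna, the gene of ficolin A, a plasma and macrophage ficolin, was at 38.5 and 34.1 TPM, and Fcnb, the gene of the myeloid ficolin B, at 24.3 and 23.4 TPM. Mbl1 encodes mannose-binding lectin A and Mbl2 mannose-binding lectin C. Mbl1 was at 25.1 and 23.8 TPM and Mbl2 at 1.24 and 1.89 TPM, the latter from 52 and 55 reads. Mbl1 was 20.3-fold above Mbl2 in replicate 1 and 12.6-fold in replicate 2, a log2 ratio of 4.0 ± 0.49 (SD, n = 2) that was the widest spread of the 13 partner ratios computed. None of the 786 windows of 100 nucleotides of Mbl1 occurred in an Mbl2 transcript. These windows came from the M21 sequence of 885 nucleotides, whereas the deposited length was 923. Mbl1 had 1 transcript row, Mbl1-201, which the annotation types as nonsense-mediated decay and not as protein-coding. Colec11, the gene of collectin 11, was level at 9.57 and 9.65 TPM.

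Fcnb is transcribed in the neutrophil lineage, whose 10 markers were all lower in replicate 2. The share of reads on Fcnb differed by a log2 ratio of -0.11 (95% interval -0.25 to 0.03), and that on Fcna by -0.26 (-0.36 to -0.15). The log2 ratio of the summed neutrophil markers was -0.48 in TPM. Its part in the ficolin values was not tested.

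The proteases of the lectin pathway were both present. Masp1, which encodes MASP-1 and, by other splicing, MASP-3, was at 9.04 and 10.7 TPM, with 1 transcript row, so that these products were not separated here. Masp2, the gene of the protease that cleaves C4 and C2, was at 23.5 and 25.5 TPM. The log2 ratio of Masp2 to Masp1 was 1.31 ± 0.09 by TPM and 0.0011 by reads, with 1001 reads for Masp2 and 1003 for Masp1 in replicate 1.

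Most of the Masp2 TPM lay on a short transcript. Masp2-202, of 738 nucleotides, held 78.9% of the gene's TPM in replicate 1 and 68.5% in replicate 2, and the full-length Masp2-201, of 3058 nucleotides, held 15.4% and 19.9%. By reads the transcripts were closer, with 495 and 324 reads for Masp2-202 and 447 and 435 for Masp2-201. The short form encodes the small protein MAp19, which has the first domains of MASP-2 and no protease domain. Its coding part of 558 nucleotides, against 2058 in Masp2-201, shares the first 544 and ends in 14 of its own. The last 36 shared nucleotides (lower case) and the next 14 in each transcript (capitals) are shown 5′ to 3′, because this is where the 2 products part.
Masp2-201: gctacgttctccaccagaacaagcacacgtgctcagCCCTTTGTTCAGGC
Masp2-202: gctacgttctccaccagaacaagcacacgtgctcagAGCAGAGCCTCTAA
The last 3 capitals of Masp2-202 are its stop codon. Of its 639 windows of 100 nucleotides, 73.1% also occur in Masp2-201, and the posterior SD of the gene's count was 1.34% and 1.45% of the estimate.

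Masp2 (chromosome 4, 148602554 to 148615499, plus strand) also overlaps Tardbp on the opposite strand. The overlap covers 1817 nucleotides of Masp2-201, 59.4% of it, and none of Masp2-202. Tardbp, the gene of the RNA-binding protein TDP-43, had 3997 and 2700 reads. The sources used here do not say whether counting used strand, so reads of Tardbp and Masp2-201 in this stretch cannot be told apart. Of the 34 genes 8 share exonic bases with another annotated gene, and apart from Tardbp none of these neighbours had more than 8.46 reads in a liver.

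In the alternative pathway, C3 was the highest of the 34 genes and Cfd gave no read. C3 (ENSMUSG00000024164.11, chromosome 17, 57203970 to 57228136), the gene of the protein on which all routes converge, had a level of 172 and 169 TPM, from 28259 and 20622 reads. It ranked 537 among the 43346 mouse gene rows by mean TPM. Cfb, the gene of factor B, the protease part of the alternative C3 convertase, was at 114 and 122 TPM and ranked 754. Cfp, the gene of properdin, which stabilises that convertase, was at 18.6 and 16.9 TPM.

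Cfd encodes factor D, the protease that cleaves factor B and is also known as adipsin from fat cells. With no read in either liver, up to 3 reads remain possible, equal to 0.0871 and 0.125 TPM. Of 4 adipocyte markers, Adipoq and Plin1 had no read either, and Fabp4, which other cells also express, was at 15.9 and 11.2 TPM.

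Cfb and C2 are paralogs that lie 85 nucleotides apart on the minus strand of chromosome 17, and they were far from equal. Cfb was 9.82-fold above C2 in replicate 1 and 9.35-fold in replicate 2, a log2 ratio of 3.26 ± 0.05 (SD, n = 2). The annotated readthrough gene Gm20547 shares exons with both and had no read assigned. C3 exceeded Hc, the gene of its paralog C5, by a log2 ratio of 2.41 ± 0.06.

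**Figure D2:**
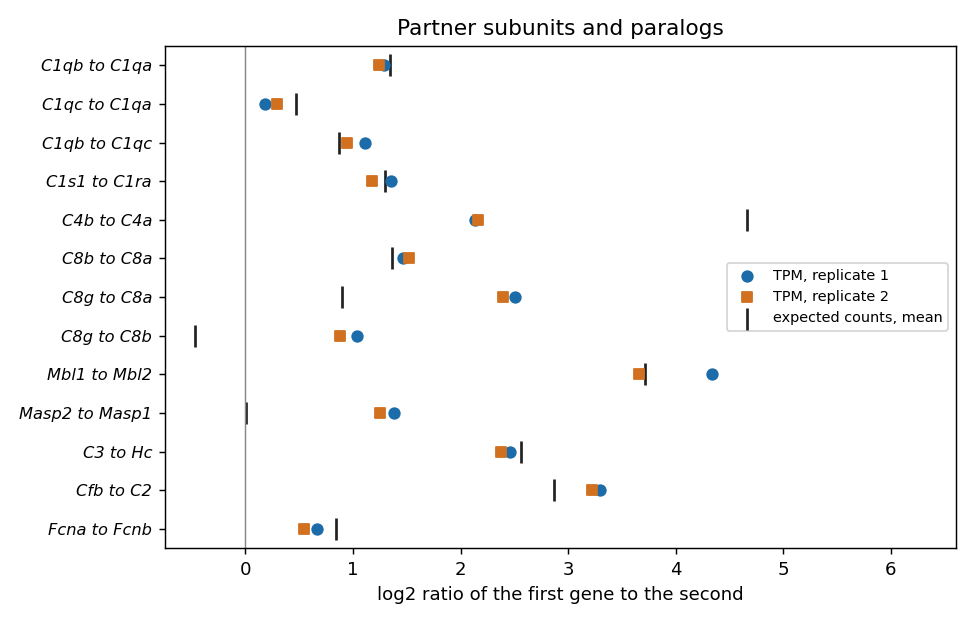
Log2 ratio of the first to the second gene of 13 pairs of partner subunits and paralogs, by TPM in replicate 1 (circles) and replicate 2 (squares) and, as vertical ticks, the mean by estimated reads. The livers lay close together in every pair except Mbl1 to Mbl2, and the tick lay on the other side of 0 from the TPM points for C8g to C8b.

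In the terminal pathway, C5 and the C8 chains were transcribed, C9 was low, C6 stood near 1 TPM and C7 was barely read. Hc, the gene of C5, was at 31.4 and 32.6 TPM from 4706 and 3575 reads. C6, whose product binds C5b first, had 1.04 and 0.60 TPM, from 97 and 37 reads. C7, whose product then inserts into the membrane, had 6 reads (0.05 TPM) in replicate 1 and none in replicate 2, where 3 reads would be 0.0396 TPM. C9, the gene of the subunit that forms the ring of the pore, was at 2.17 and 2.26 TPM.

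The genes of the C8 chains stood in the same order in both livers. C8a, the alpha chain, was at 8.40 and 8.36 TPM, C8b, the beta chain, at 23.2 and 23.9 TPM, and C8g, the gamma chain, at 47.7 and 43.9 TPM. C8b exceeded C8a by a log2 ratio of 1.49 ± 0.04 (SD, n = 2) and C8g exceeded C8a by 2.45 ± 0.08. C8g is the short gene of the 3, and by reads it was above C8a by 0.90 but below C8b, with a log2 ratio of -0.47 against 0.96 ± 0.12 by TPM. The order of C8g and C8b therefore changed with the length scaling. The C8g level also includes transcripts not typed as protein-coding, mainly C8g-204 (18.4 and 11.3 TPM) and C8g-207 (4.66 and 10.6 TPM). The protein-coding C8g-201 was at 14.8 and 14.6 TPM and C8g-202 at 9.57 and 6.68 TPM, each below C8b.

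Promoter sequences were found in the RefSeq table (GRCm38.p6) for 26 of the 34 genes, 28 promoters in all, each from 250 bases before to 50 after the start. The hepatocyte factor HNF1 binds the core GTTAAT, which was searched on both strands. It occurred in 8 of 28 promoters (28.6%), those of Cd55, C4bp, Hc, C8b, C8a, C1ra, C7 and Cfp, and in 7.10% of all 32851 promoters. The 250 bases before the start of Hc, C8a and C8b are shown, as genes of late components picked because they hold it. The match is in capitals (ATTAAC is the same site on the other strand). Positions are chr2:35061413-35061662 (minus strand) for Hc, chr4:104876399-104876648 (minus strand) for C8a and chr4:104766067-104766316 (plus strand) for C8b.
Hc: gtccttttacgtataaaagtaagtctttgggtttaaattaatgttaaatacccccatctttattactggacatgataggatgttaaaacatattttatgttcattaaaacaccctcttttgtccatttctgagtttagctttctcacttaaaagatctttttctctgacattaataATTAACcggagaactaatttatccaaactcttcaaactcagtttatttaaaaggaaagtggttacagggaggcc
C8a: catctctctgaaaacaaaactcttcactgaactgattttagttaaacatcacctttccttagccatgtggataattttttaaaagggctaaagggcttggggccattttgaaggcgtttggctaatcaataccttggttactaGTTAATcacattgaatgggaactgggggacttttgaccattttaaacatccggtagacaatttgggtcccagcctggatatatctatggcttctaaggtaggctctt
C8b: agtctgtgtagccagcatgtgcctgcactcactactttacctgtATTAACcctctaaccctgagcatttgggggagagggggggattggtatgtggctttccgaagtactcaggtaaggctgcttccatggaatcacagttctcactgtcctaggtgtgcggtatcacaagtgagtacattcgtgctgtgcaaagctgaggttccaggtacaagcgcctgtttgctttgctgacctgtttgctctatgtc
The site begins 74 bases before the start in Hc, 107 in C8a and 206 in C8b. Among the other late genes, C7 carried the letters too and had almost no reads, while the promoters of C6, C9 and C8g held no match. A match describes the letters only. The C/EBP motif TTGCNNAA was found in 5 of the 28 promoters (17.9%), those of Fcnb, C1ra, C1s1, C9 and C3, and in 10.8% of all. The core GAGGAA, bound by the myeloid factor PU.1, was found in 6 (21.4%), those of Fcna, Cd59a, C1qb, C1qc, C1ra and Cfp, and in 28.3% of all. No promoter of C1qa was among the 28. The HNF4 motif CAAAGTCCA was found in none of the 28 and in 0.475% of all.

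Among the regulators, factor I was the highest. Cfi, the gene of the protease that cuts C3b and C4b with the help of cofactors, was at 125 and 128 TPM from 10327 and 7369 reads and ranked 704 of all mouse gene rows. Cd59a, the gene of a membrane protein that blocks the assembly of the pore, was at 75.8 and 71.4 TPM. Cd55, which encodes the decay accelerator of the convertases, was at 16.1 and 17.8 TPM.

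Both cofactor genes among the 34 were low. C4bp, the gene of C4b-binding protein, was at 2.13 and 1.82 TPM, and Cd46, a membrane cofactor that in mice is known mainly from the testis, was at 0.80 and 0.78 TPM from 50 and 35 reads. The related membrane cofactor gene Cr1l (Crry) was higher, at 53.8 and 61.7 TPM.

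Serping1, the gene of the C1 inhibitor, which inactivates C1r, C1s and the MASP proteases, differed most between the livers on the log2(TPM + 1) scale among the genes that passed the filter on low values. Its level was 50.2 and 37.2 TPM, from 3492 and 1801 reads, so the level was 1.35-fold higher in replicate 1. The log2 ratio of read shares was -0.49 (95% interval -0.58 to -0.41), and 2.53% of all genes passing the filter had a lower ratio of read shares. One transcript, Serping1-201, held 99.4% and 98.97% of its TPM. The summed mesenchymal markers moved the other way, from 183 to 200 TPM, and the endothelial markers were level at 104 and 104 TPM. The part of cell numbers in the Serping1 values was not tested.

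The receptors for the released fragments were the lowest set. C3ar1, the gene of the C3a receptor, was at 0.54 and 0.49 TPM from 95 and 60 reads, and C5ar1, the gene of the C5a receptor of myeloid cells, at 1.19 and 0.87 TPM from 119 and 62 reads. For C5ar1 the log2 ratio of read shares was -0.48 (95% interval -0.95 to -0.02), beside -0.48 for the summed TPM of the neutrophil markers, whose part was not tested. All C5ar1 reads were given to transcript C5ar1-201 in replicate 1 and to C5ar1-202 in replicate 2. Of the 2382 windows of 100 nucleotides in C5ar1-201, 98.8% also occur in C5ar1-202, so few reads can separate them.

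The livers were compared by the ratio of TPM, with 1 added to each value. Of the 34 genes, 28 passed the filter of a mean of 1 TPM and 50 summed reads, and 0 of these differed by 1.5-fold or more on the log2(TPM + 1) scale, against 1.82% of 11484 genes passing it, a share at which few of 28 genes would be counted in any case. In TPM with nothing added, Mbl2 was 1.52-fold higher in replicate 2, 1 gene of 28 against 4.82% of all, and the interval of its read-share ratio (-0.03 to 1.12) included 0. At the lowest threshold tried, 0.32 on this log2 scale, Serping1 and C4b were lower and Mbl2 higher in replicate 2, 3 genes of 28 against 12.2% of all. For C4b the TPM includes the retained intron C4b-203, at 1.94 and 0.96 TPM, beside C4b-201 at 2.01 and 1.70 TPM. The scale understates differences of low genes. The ratios (replicate 2 over replicate 1) ran from -0.42 for Serping1 to 0.37 for Mbl2, with 15 genes higher and 13 lower in replicate 2. The median was 0.01, beside 0.10 over all genes that passed.

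Among the 28 genes that passed the filter, the 95% counting interval of the read-share ratio left out 0 for 16, 7 above and 9 below, against 42.6% of all genes passing it. These intervals hold no variation between animals, so deeply read genes leave out 0 at small differences. Of the genes lower in replicate 2 by this measure, C6, which did not pass the filter, differed by -0.93 (-1.52 to -0.37) and C4b by -0.36 (-0.58 to -0.15). Of those higher, C1ra differed by 0.26 (0.12 to 0.41), C2 by 0.18 (0.05 to 0.32), Masp1 by 0.18 (0.04 to 0.31) and Masp2 by 0.18 (0.05 to 0.32). The transcripts of Masp2 did not move together. Of its reads, Masp2-202 held 49.5% and 39.2%, and Masp2-201, which overlaps Tardbp, 44.6% and 52.7%. Masp2-203 held 0.231% and 5.70% and Masp2-204 5.68% and 2.37%, both typed as retained introns. The largest genes moved little, with C3 at 0.01 (-0.02 to 0.03), Cfi at -0.03 (-0.07 to 0.02) and Cfb at 0.06 (0.01 to 0.11).

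**Figure D3:**
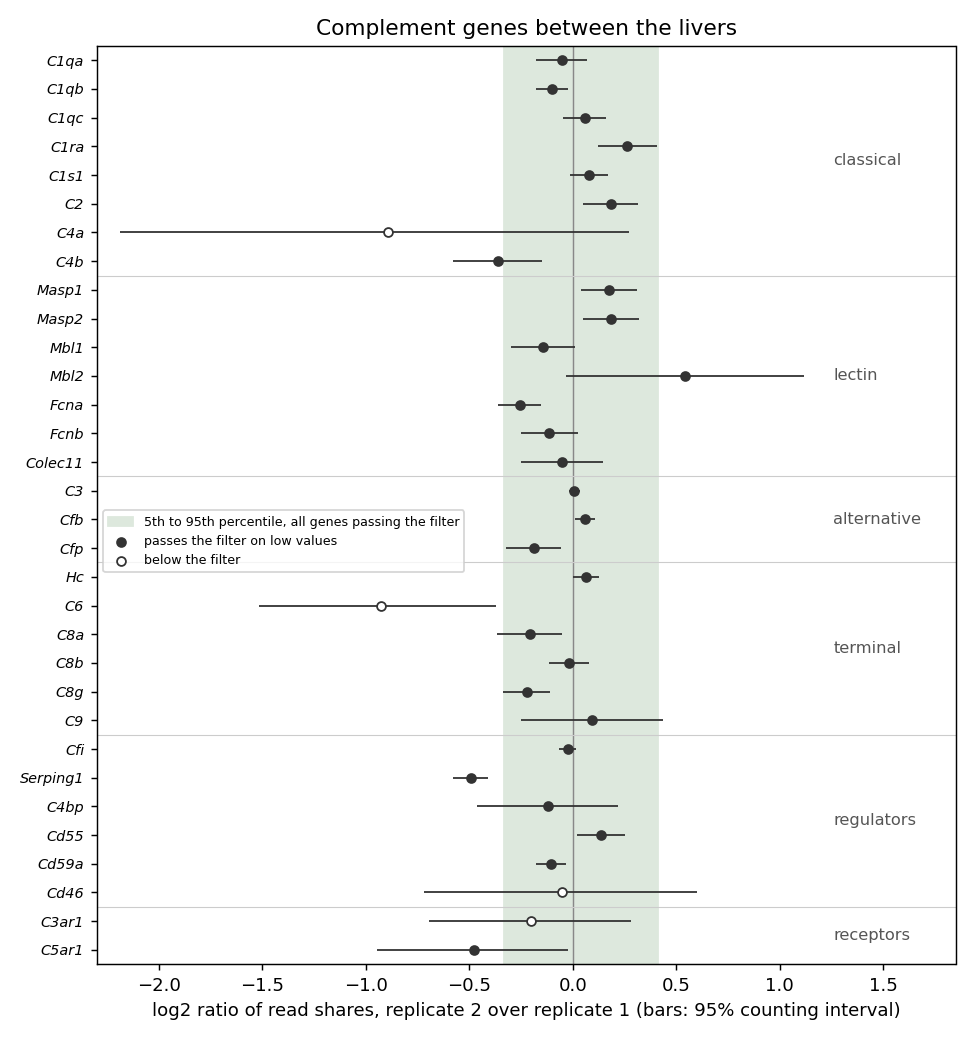
Log2 ratio of each complement gene's share of reads, replicate 2 over replicate 1, with 95% counting intervals, for the 32 genes with reads in both livers. The band spans the 5th to 95th percentile of all genes passing the filter (-0.33 to 0.41), Serping1 and C6 lie left of it with their whole intervals, and C3 and Cfi sit near 0.

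Most well-expressed genes were read mainly from 1 transcript. Of the 16 genes with several transcript rows and a mean of 5 TPM or more, 15 had the same leading transcript in both livers, and in 13 it held 50% or more of the gene's TPM in both. Cfb, C8a and C8g were the exceptions to the latter. For C8g the leader changed from C8g-204, with 38.5% and 25.8%, to C8g-201, with 31.0% and 33.3%, and C8g-207 went from 9.76% to 24.1%. The annotation types C8g-204 and C8g-207 as processed transcripts and C8g-201 as protein-coding. Cfb-206 held 46.6% and 44.4% of Cfb.

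Short annotated transcripts weighed more in TPM than in reads. The full-length C3-201 held 75.8% and 81.8% of C3 by TPM but 97.2% and 98.0% by reads, and the rest lay almost wholly on the 554-nucleotide C3-203. For Hc, Hc-201 held 63.5% and 67.4% by TPM. C1s1-204 held 69.8% and 82.4% of C1s1, with no repeat library of a liver to set against that difference.

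**Figure D4:**
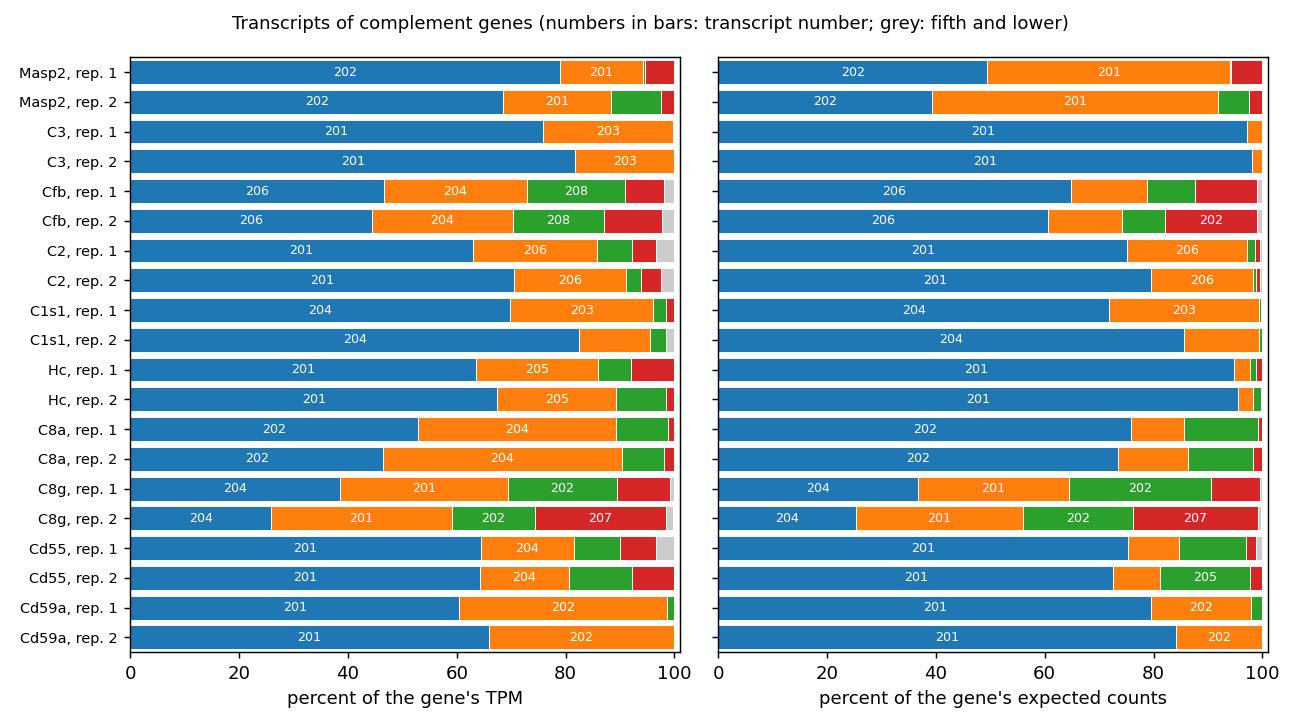
Share of each gene's TPM (left) and of its estimated reads (right) held by its transcripts, in percent, for 10 complement genes with 1 bar per liver; the numbers in the bars are transcript numbers. Masp2-202 fills most of the Masp2 bars by TPM and less by reads, and C3-201 nearly fills the C3 bars by reads.

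Of 25 other complement genes, 15 reached 1 TPM in both livers and 5 had a mean of 10 TPM or more. Vtn, the gene of vitronectin, an inhibitor of pore insertion, was at 293 and 355 TPM, above C3. Clu, the gene of clusterin, which also blocks the late complex, was at 45.7 and 51.7 TPM, and Cpn1, the gene of the carboxypeptidase that inactivates C3a and C5a, at 35.8 and 41.1 TPM. Cd59b, the second mouse CD59 gene, was at 11.6 and 13.6 TPM, below Cd59a in each liver. C1rb, C1s2, Cfhr3 and Csmd1 had no read in either.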

How the data were processed

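Total RNA above 200 nucleotides was extracted with mirVana and 10 ng was used per library, with a Smart-seq protocol linked and ERCC spike-ins added, per the labels' protocols. For each library the authors deposited gene and transcript tables, built on mm10 and GENCODE M4 according to their deposited descriptions. The aligner, the counting program and the use of strand are not given in sources used here. The deposited expected counts were not normalized and may be fractional. TPM and FPKM were deposited over all rows, spike-ins included, per the file headers. The percent of a gene's TPM held by each transcript, and a posterior SD of each count as a score in reads, were deposited too. Effective length was 99 nucleotides below length, which raises the TPM per read of short transcripts.

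GENCODE M21, on the same build, gave symbols and positions through the identifier without its version. Rows with numeric identifiers were left out. Spike-ins took 7.35% and 6.72% of 39998450 and 28848861 estimated reads. Detection was set at 1 TPM in both libraries. Between livers, log2(TPM + 1) ratios used genes with a mean of 1 TPM and 50 summed counts, and 1.5-fold was the threshold. Intervals are exact Poisson (levels) and Clopper-Pearson (read-share ratios, conditional on the sum) at 95%, and a count of 0 allows 3 reads. They cover counting error only, since amplified reads are not independent molecules. The procedure was tested on simulated data. edgeR 4.0.16 (R 4.3.3) gave TMM factors from rounded counts for an alternative, with no test. Other steps used Python 3.11.15 (scipy 1.17.1, numpy 2.4.6, pandas 2.3.3) and figures matplotlib 3.10.9.

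All 34 members were to be named, with other complement genes at a mean of 10 TPM or more or with no read, and of each cell type list its sum, its highest gene and any with no read. Cd163 and Tardbp were named after values were seen. Members and lists were chosen with earlier results of these data known.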

Additional observations from a re-analysis of the deposited data

How the results depend on the processing

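The pathway shares moved with the unit and with C3. By expected counts the shares were 13.4% classical, 7.67% lectin, 45.1% alternative, 11.3% terminal, 22.4% regulators and 0.229% receptors. With C3 left out of the sum they were 23.6%, 15.4%, 16.1%, 13.4%, 31.3% and 0.183%. By expected counts the log2 partner ratios became 1.34 (C1qb to C1qa), 0.47 (C1qc to C1qa), 0.87 (C1qb to C1qc), 4.66 (C4b to C4a), 1.37 (C8b to C8a), 0.90 (C8g to C8a), -0.47 (C8g to C8b, reversed), 0.0011 (Masp2 to Masp1), 2.56 (C3 to Hc), 2.87 (Cfb to C2) and 0.84 (Fcna to Fcnb). The near-zero median log2 ratio of the members changed sign to -0.040 with FPKM, -0.089 for CPM with TMM factors, -0.040 without globin genes and -0.011 with no filter. The median of all genes shifted by -0.10 with TMM, and relative to it the members stood at -0.085 in TPM and -0.085 with TMM. At the lowest fold threshold (0.32 on the log2 scale), 3 members were called (Serping1 and C4b lower, Mbl2 higher in replicate 2), against 12.2% of all genes. With no pseudocount, an alternative chosen after seeing the data, 1 member (Mbl2) was called at 1.5-fold. Of the other values, 44 leave out 1 library, and for a mean of 2 libraries such a value lies within 1 SD by construction and shows nothing about stability. The remaining 21 stayed within 1 SD or within 1.5 times the count. No paired analysis was possible because there is only 1 group.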

Other observations

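Marker lists of other cell types gave these summed levels, in TPM for replicate 1 and then replicate 2. The 8 erythroid markers summed to 359524 and 345616 TPM, and the 6 megakaryocyte markers, each higher in replicate 2, to 532 and 663 TPM, led by Pf4 at 338 and 418 TPM. B cell markers summed to 12.0 and 13.5 TPM and mesothelial markers to 6.27 and 5.19 TPM. Of 6 markers of T and NK cells 1 reached 1 TPM in both livers, Nkg7 at 9.27 and 7.47 TPM, and Cd3e and Cd8a had no read. The mast cell and basophil list was led by Mcpt8 at 12.6 and 3.51 TPM, and the neutrophil list by S100a8 at 1292 and 894 TPM.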
